A study of Mus musculus with 15 samples.

Results

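DNA replication and entry into S phase were followed through 41 genes in LSZ2 and LSZ4, a pair of mouse lines of non-small cell lung cancer that carried hairpins against Siva or control hairpins. A member was every array probe whose gene name in the scanner files equalled 1 of the 41 symbols, which gave 50 probes, and 8 genes had several. A gene was read through its brightest probe. Of the 41 genes, 40 passed the filter on dim probes, and each of the 40 was well above background on 15 of 15 arrays. The exception was Ccne2, a cyclin that activates CDK2 at the start of S phase, which was not well above background on any of the 15 arrays and has no value here. The 40 stood among 22908 genes tested.

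Total RNA was measured on 15 Agilent 1-colour arrays, 8 from cells with a Siva hairpin and 7 from cells with a control hairpin. With shSiva1 and with shSiva2, both in the pLKO TRC2.0 vector, there were 2 arrays each in LSZ2 and 2 each in LSZ4. With shGFP in the pLKO.1 vector there was 1 array in LSZ2 and 2 in LSZ4, and with shLacZ in the LL37 vector there were 2 in each line. Cells were kept in DMEM with serum, infected with virus made in 293T cells and harvested 2 days after plating, after 3 days in puromycin for every group but shLacZ, which was not selected. The vector differs between the arms, and 1 slide held the 8 shSiva arrays and another the 7 control arrays, so neither can be told apart from the hairpin.

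A cell copies its DNA once per cycle. In G1 the proteins Cdc6 and Cdt1 load the Mcm2 to Mcm7 helicase onto origins, and the kinases Cdc7 with Dbf4 and CDK2 with cyclin E then recruit the GINS complex and start the helicase. Primase and the polymerases copy the strands, the clamp Pcna is put on by the replication factor C complex, and Fen1 and Lig1 join the lagging strand. Many of these genes, and those that make deoxynucleotides, are targets of E2F transcription factors, which the retinoblastoma protein holds back until cyclin and kinase activity releases them. Siva1 itself is a target of p53, the tumour suppressor that can stop cells in G1.

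Since E2F factors act at promoters, the promoters of the members were searched for the letters of the E2F site. RefSeq windows on GRCm38.p6, from 250 bases before to 50 bases after a gene's start, were held for 34 of the 41 genes. The words TTTCCCGC, TTTCGCGC, TTTGCCGC and TTTGGCGC were sought on both strands. At least 1 of them was present for 13 of the 34 genes (38.2%), against 2.60% of 27025 genes with a window of the same length. The 13 were Cdc6, Cdt1, E2f2, Gins3, Lig1, Mcm3, Mcm5, Mcm6, Mcm7, Pola1, Pold1, Rfc3 and Uhrf1. The word CCAAT, the core of the NF-Y site, was present on either strand for 19 of the 34 genes (55.9%), against 41.1% of all genes. The E2F word TTTGGCGC reads GCGCCAAA on the other strand and so shares the letters CCAA with CCAAT. A match is a run of letters, not a measured site. The windows of the 3 genes called lower in the pooled comparison below, E2f2, Rrm2 and Pola2, and of Mcm5, whose window held 2 overlapping E2F words, are printed 5′ to 3′ on the strand of the gene, with the matches in capitals.
E2f2, plus strand, chr4:136172024-136172323: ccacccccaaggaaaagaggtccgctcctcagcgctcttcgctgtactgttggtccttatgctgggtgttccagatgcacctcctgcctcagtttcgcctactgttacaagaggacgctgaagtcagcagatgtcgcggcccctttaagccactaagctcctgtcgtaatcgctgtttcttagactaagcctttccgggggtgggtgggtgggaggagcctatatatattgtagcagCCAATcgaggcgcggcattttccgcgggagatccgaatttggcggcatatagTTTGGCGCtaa
Rrm2, plus strand, chr12:24708004-24708303: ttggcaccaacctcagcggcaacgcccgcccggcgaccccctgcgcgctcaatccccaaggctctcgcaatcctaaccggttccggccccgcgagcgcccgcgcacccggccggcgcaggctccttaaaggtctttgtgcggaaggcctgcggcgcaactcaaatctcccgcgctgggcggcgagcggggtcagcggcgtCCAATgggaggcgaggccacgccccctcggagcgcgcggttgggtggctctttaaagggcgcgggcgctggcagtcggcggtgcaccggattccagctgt
Pola2, minus strand, chr19:5964157-5964456: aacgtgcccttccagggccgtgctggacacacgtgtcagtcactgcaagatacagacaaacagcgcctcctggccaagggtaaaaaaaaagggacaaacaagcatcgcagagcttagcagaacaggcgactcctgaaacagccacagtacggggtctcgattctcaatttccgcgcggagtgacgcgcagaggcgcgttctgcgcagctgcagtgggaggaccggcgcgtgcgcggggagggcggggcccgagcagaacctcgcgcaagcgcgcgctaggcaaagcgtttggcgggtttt
Mcm5, plus strand, chr8:75109259-75109558: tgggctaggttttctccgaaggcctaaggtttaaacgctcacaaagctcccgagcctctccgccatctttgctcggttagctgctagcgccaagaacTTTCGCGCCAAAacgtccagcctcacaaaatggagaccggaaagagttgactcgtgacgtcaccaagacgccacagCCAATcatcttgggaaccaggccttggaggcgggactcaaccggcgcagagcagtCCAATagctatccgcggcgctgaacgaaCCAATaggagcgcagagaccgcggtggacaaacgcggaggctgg
E2f2 held 1 E2F word and 1 CCAAT, and a further window of E2f2 held no E2F word. Rrm2 held 1 CCAAT and no E2F word, Pola2 held none of these words, and Mcm5 held 2 E2F words and 3 CCAAT. A link between these words and the changes was not tested.

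Values below are the processed spot signal divided by the 75th percentile of the signals on its array, called the scaled level, and changes are log2 differences from limma. The percentile itself, the brightness of an array, ran from 497 to 956 intensity units on the shSiva arrays and from 425 to 1029 on the control arrays. It was 791 to 1029 in LSZ2 and 425 to 956 in LSZ4, and the 2 dimmest arrays were both LSZ4 shGFP. The share of spots well above background was 49.0% to 60.6%, and no array had a saturated spot (0 on each). Siva1 was at −2.52 on the log2 scale in shSiva cells relative to control cells (SE 0.26, adjusted p = 3.12e-05), a level of 17.5% of the control. Of 9 lung epithelial markers 7 were well above background on some array, but Nkx2-1 and Sftpc were not on any. Of markers of other cells, 6 of 7 immune, 2 of 5 endothelial and 3 of 7 fibroblast genes were well above background on some array. Across these lists Epcam was higher (0.68, adjusted p = 0.00979) and Pecam1 lower (−0.65, adjusted p = 0.0172) in shSiva cells, and their part in the results was not tested. In bulk RNA, fewer cycling cells and less RNA per cell cannot be told apart.

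Most members were slightly lower in shSiva cells than in control cells when both lines were pooled with the line as a term, and 3 passed the test. These were E2f2, a transcription factor of S phase genes, Rrm2, the small subunit of ribonucleotide reductase, and Pola2, a subunit of the polymerase alpha and primase complex. The change was negative for 38 of 40 members, against 64.1% of all genes, with a median of −0.29, against a median of −0.11 over all genes. At an adjusted p of 0.05 the fit called 9.99% of all genes in either direction, and 3 of 40 members is not above that share. All 3 were called lower, as were 5.67% of all genes. At an unadjusted p of 0.05, 14 of the 40 members and 25.4% of all genes passed. A random block for each line and hairpin left 0 members and 4.20% of all genes called, and a mean for each of these 8 groups 0 members and 1.25%.

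E2f2 had a scaled level of 8.28 and 10.5 with shSiva1 and 10.1 and 9.29 with shSiva2 in LSZ2, against 13.5 with shGFP and 13.1 and 14.3 with shLacZ. In LSZ4 it was 8.28 and 12.8 with shSiva1 and 12.3 and 16.8 with shSiva2, against 27.2 and 27.7 with shGFP and 14.2 and 21.1 with shLacZ. All 4 shSiva arrays of LSZ2 lay under its 3 control arrays, while in LSZ4 the higher shSiva2 array passed the lower shLacZ array. The pooled change was −0.69 (SE 0.17, adjusted p = 0.0193), the lowest of the 40. E2f2 is held on 1 probe, at 135750562 to 135750621 of chromosome 4 on the mm9 build.

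Rrm2, which supplies deoxynucleotides in S phase, had a scaled level of 91.6 and 106.9 with shSiva1 and 99.6 and 93.2 with shSiva2 in LSZ2, against 120 with shGFP and 106.8 and 126 with shLacZ. In LSZ4 it was 84.3 and 105 with shSiva1 and 94.5 and 88.0 with shSiva2, against 160 and 159 with shGFP and 124 and 153 with shLacZ. The groups stood apart in LSZ4, whereas in LSZ2 the higher shSiva1 array passed the lower shLacZ array by a small margin. The pooled change was −0.49 (SE 0.12, adjusted p = 0.0165). Its probe lies at 25398824 to 25398883 of chromosome 12 on mm9.

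In LSZ2 the scaled level of Pola2 was 1.17 and 1.35 with shSiva1 and 1.40 and 1.47 with shSiva2. With shGFP it was 1.56 and with shLacZ 1.48 and 1.82. In LSZ4 it was 0.989 and 1.51 with shSiva1 and 1.36 and 1.88 with shSiva2, against 2.97 and 3.02 with shGFP and 1.77 and 2.47 with shLacZ. LSZ2 showed no overlap, and in LSZ4 1 shSiva2 array passed 1 shLacZ array. The pooled change was −0.57 (SE 0.17, adjusted p = 0.0447), and it lost the call in 11 of 15 fits that left out 1 array, with adjusted p between 0.0217 and 0.0931. E2f2 and Rrm2 lost the call in 0 of 15 such fits. The Pola2 probe lies at 5946484 to 5946543 of chromosome 19 on mm9.

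Ccne1 was the exception among the regulators. It encodes cyclin E1, the partner of CDK2 in late G1, and its pooled change was the highest of the 40, at 0.39 (SE 0.21, adjusted p = 0.257). Its scaled level in LSZ2 was 10.96 and 13.8 with shSiva1 and 9.33 and 8.54 with shSiva2, against 6.14 with shGFP and 6.31 and 7.25 with shLacZ. In LSZ4 it was 10.1 and 18.8 with shSiva1 and 8.79 and 14.1 with shSiva2, against 13.98 and 14.3 with shGFP and 6.98 and 11.4 with shLacZ. Every shSiva array of LSZ2 exceeded every control array of that line, but in LSZ4 the arms overlapped widely. A second Ccne1 probe gave a pooled change of 0.55 (SE 0.18, adjusted p = 0.0626). Mcm4, a helicase subunit, was next at 0.06 (SE 0.10, adjusted p = 0.739). Its scaled level was 58.4 to 63.5 on the LSZ2 shSiva arrays, against 52.2 to 56.5 on the LSZ2 control arrays. In LSZ4 it was 45.8 to 56.0 with shSiva, against 49.8 to 57.0 with control, and these overlapped.

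**Figure D1:**
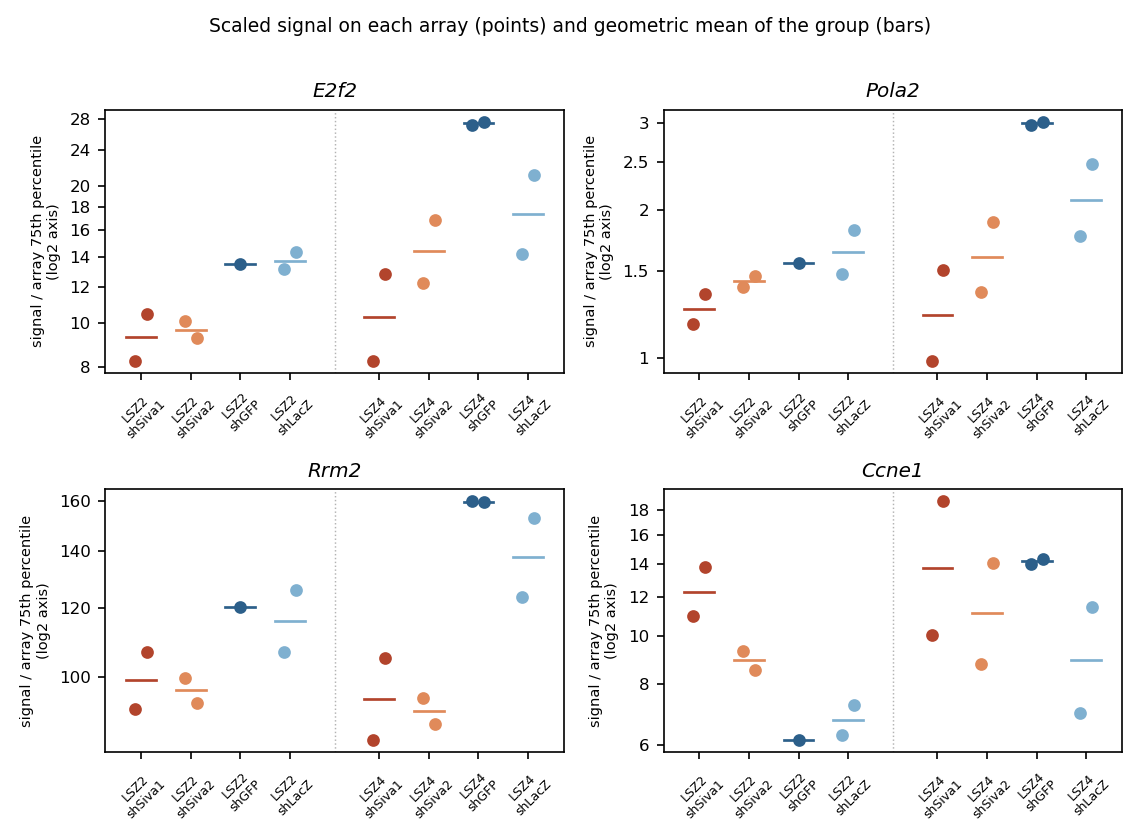
Scaled level (processed signal over the array's 75th percentile, log2 axis) of E2f2, Pola2, Rrm2 and Ccne1 on each of 15 arrays, as points, by line and hairpin, with bars for the geometric mean of each group. The LSZ4 shGFP arrays are the highest for E2f2, Pola2 and Rrm2, and in LSZ2 every shSiva point of E2f2 and Pola2 is under every control point, while for Ccne1 every one is above.

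By role, the pooled medians were negative for each class of members, and they stayed negative under each of 6 ways of scaling the arrays or adjusting for their brightness. Of single members, 34 were negative under all 6, Ccne1 was positive under all 6, and the sign of Gins1, Gins4, Mcm4, Mcm6 and Rrm1 depended on the setting. The 13 licensing and helicase genes had a median of −0.22 and 0 calls. Mcm5 and Cdt1 shared the lowest change of this class, −0.48, and Mcm4 the highest. The 6 clamp and clamp loader genes had a median of −0.27 and 0 calls, from −0.35 for Rfc5, a small subunit of the loader, to −0.11 for Rfc3, another.
The 7 genes of the polymerases, primase and single-strand binding had a median of −0.36 and 1 call, Pola2. Rpa2, a subunit of the complex that coats single strands, was at −0.50 (SE 0.21, adjusted p = 0.154), and Pola1, the catalytic subunit beside Pola2, was at −0.12 (SE 0.30, adjusted p = 0.834). The 4 Okazaki fragment and chromatin genes had a median of −0.38 and 0 calls. Among them Uhrf1, which guides DNA methylation to copied DNA, was lowest at −0.49 (SE 0.18, adjusted p = 0.101). The 5 nucleotide genes had the lowest median, −0.43, with 1 call, Rrm2. Rrm1, the large subunit of the same reductase, stood at −0.13 (SE 0.11, adjusted p = 0.476). The 5 regulators had a median of −0.29 and 1 call, E2f2, and E2f1, its close relative, was at −0.29 (SE 0.21, adjusted p = 0.423).

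The brightness of an array moved with many members, so each comparison was also fitted with the log2 brightness as a covariate. The pooled fit then called 29.1% of all genes and 22 of 40 members, 21 lower and 1 higher. The medians hardly moved, at −0.27 for the members and −0.09 for all genes, while the standard errors were smaller. E2f2 was at −0.63 (SE 0.06, adjusted p = 1.05e-05), Pola2 at −0.52 (SE 0.08, adjusted p = 0.000414) and Rrm2 at −0.46 (SE 0.08, adjusted p = 0.000755). Ccne1 was the member called higher, at 0.44 (SE 0.15, adjusted p = 0.0411). The calls by class were 3 of 13 licensing and helicase genes, 4 of 6 clamp genes, 5 of 7 polymerase genes, 3 of 4 Okazaki fragment and chromatin genes, 3 of 5 nucleotide genes and 4 of 5 regulators. The 3 licensing genes, Mcm5, Cdt1 and Mcm7, were all lower, and so were Pcna, Rfc1, Rfc4 and Rfc5.

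**Figure D2:**
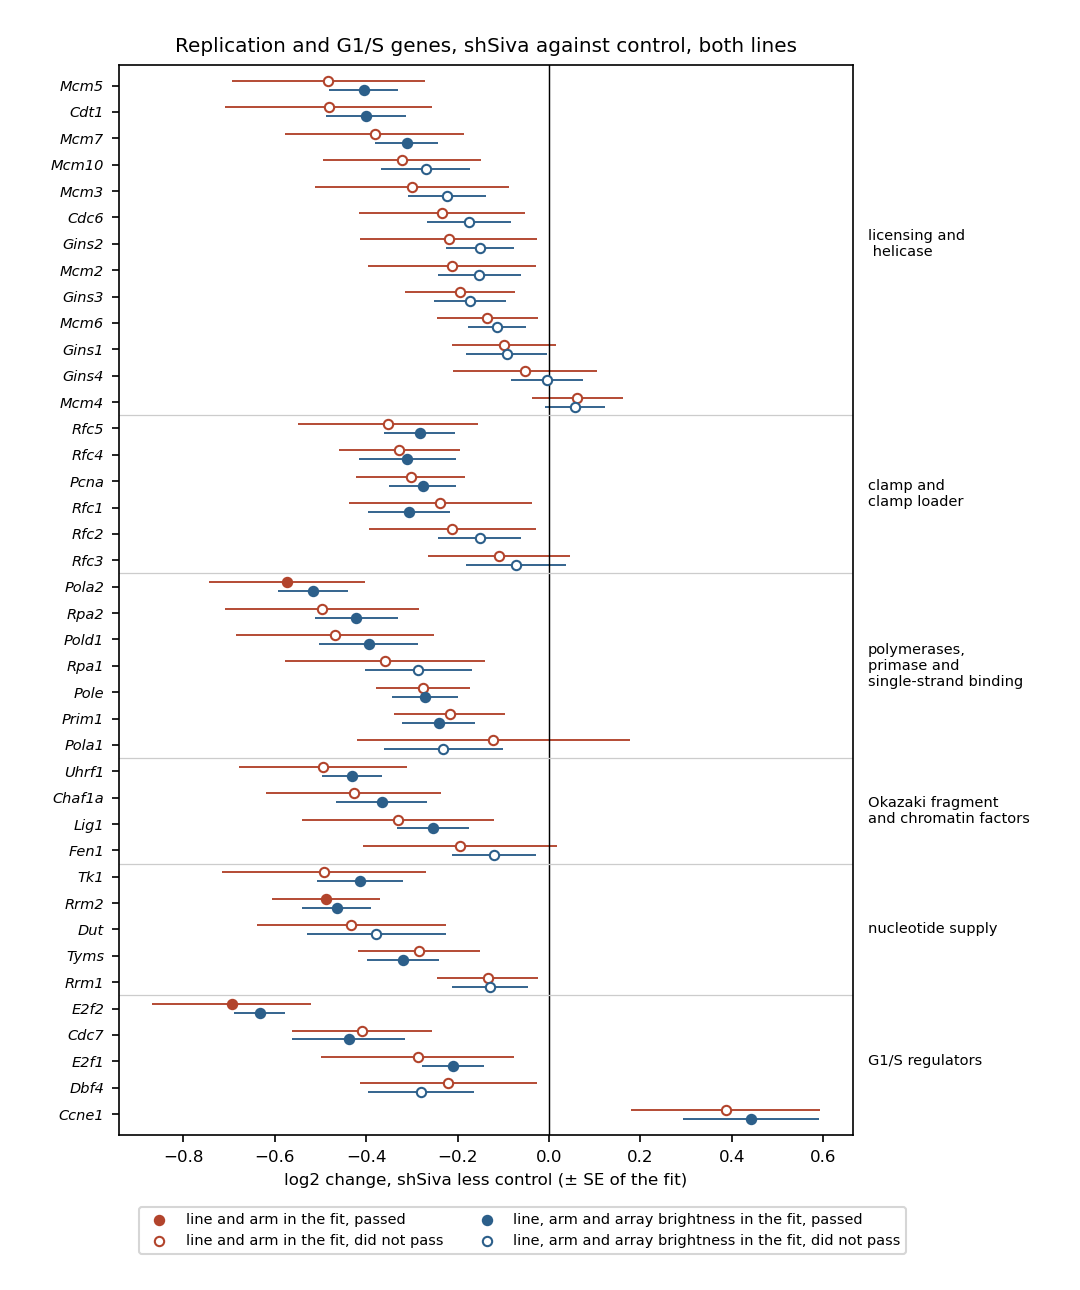
Log2 change of the 40 members, shSiva less control over both lines, with the SE of the fit as bars, grouped by role. Red points are from the fit with line and arm, in which E2f2, Rrm2 and Pola2 passed (filled), and blue points from the fit that also holds array brightness, in which 22 passed. The points lie left of 0 except for Ccne1 and for Mcm4, whose sign depends on the scaling.

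The members' signals before scaling were also set against the brightness of the array. The slope is that of log2 signal on log2 brightness, in a fit that also holds line and arm as separate terms. A signal that rises in step with brightness has a slope of 1. One that does not follow brightness has a slope of 0. The slope was under 0.5 for 25 of 40 members (62.5%), against 51.8% of all genes, and over 1.5 for 4 members (10.0%), against 20.7%. The median slope was 0.12 for members and 0.46 for all genes. After scaling, 34 of 40 members (29 lower and 5 higher on bright arrays) and 65.7% of all genes passed a test for a slope on brightness. E2f1, a driver of S phase entry, had the smallest p of the members, with a scaled slope of −1.22 (SE 0.11) and a slope of −0.22 before scaling. The 4 steep members were Pola1 at 2.73, Rfc1, the large subunit of the clamp loader, at 2.08, Dbf4, the activator of the Cdc7 kinase, at 1.93, and Tyms, thymidylate synthase, at 1.54.

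**Figure D3:**
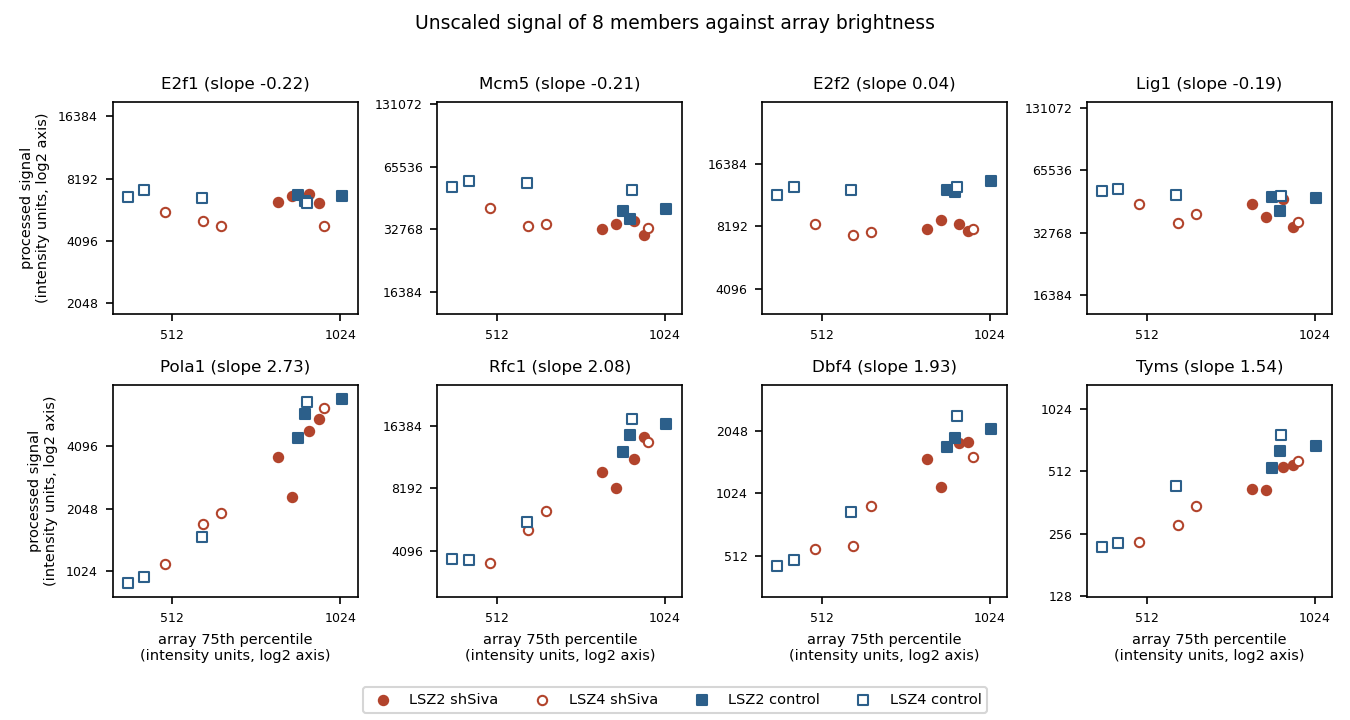
Processed signal of 8 members before scaling (intensity units, log2 axis) against the 75th percentile of the array (intensity units, log2 axis), 1 point per array. The upper 4 genes, with slopes between −0.22 and 0.04, hardly follow the brightness, and the lower 4, with slopes between 1.54 and 2.73, rise more than in step with it. For E2f2 all shSiva points lie under all control points at every brightness.

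Before scaling, E2f2 ran from 7444 to 8773 intensity units on the 8 shSiva arrays, against 11560 to 13530 on the 7 control arrays. Mcm7, a helicase subunit, ran from 49680 to 63770 on shSiva arrays, against 65050 to 76960 on control arrays. Tk1, the thymidine kinase of the salvage pathway, ran from 35920 to 54410 on shSiva arrays, against 56810 to 63450 on control arrays. For these 3 of 40 members every shSiva array was below every control array of either line, as for 2.52% of all genes. Without any scaling the pooled fit called 12 of 40 members, all lower, and 16.3% of all genes. E2f2 was then at −0.63 (adjusted p = 3.6e-05) and Pola2 at −0.51 (adjusted p = 0.00115). Ccne1 before scaling was 10270, 11560, 9622 and 10910 with shSiva1 and 7377, 7684, 5502 and 6996 with shSiva2, against 5445 to 6610 on the control arrays. All 4 shSiva1 arrays and 3 of 4 shSiva2 arrays were above every control array, and LSZ4 shSiva2 replicate 1 was not.

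**Figure D4:**
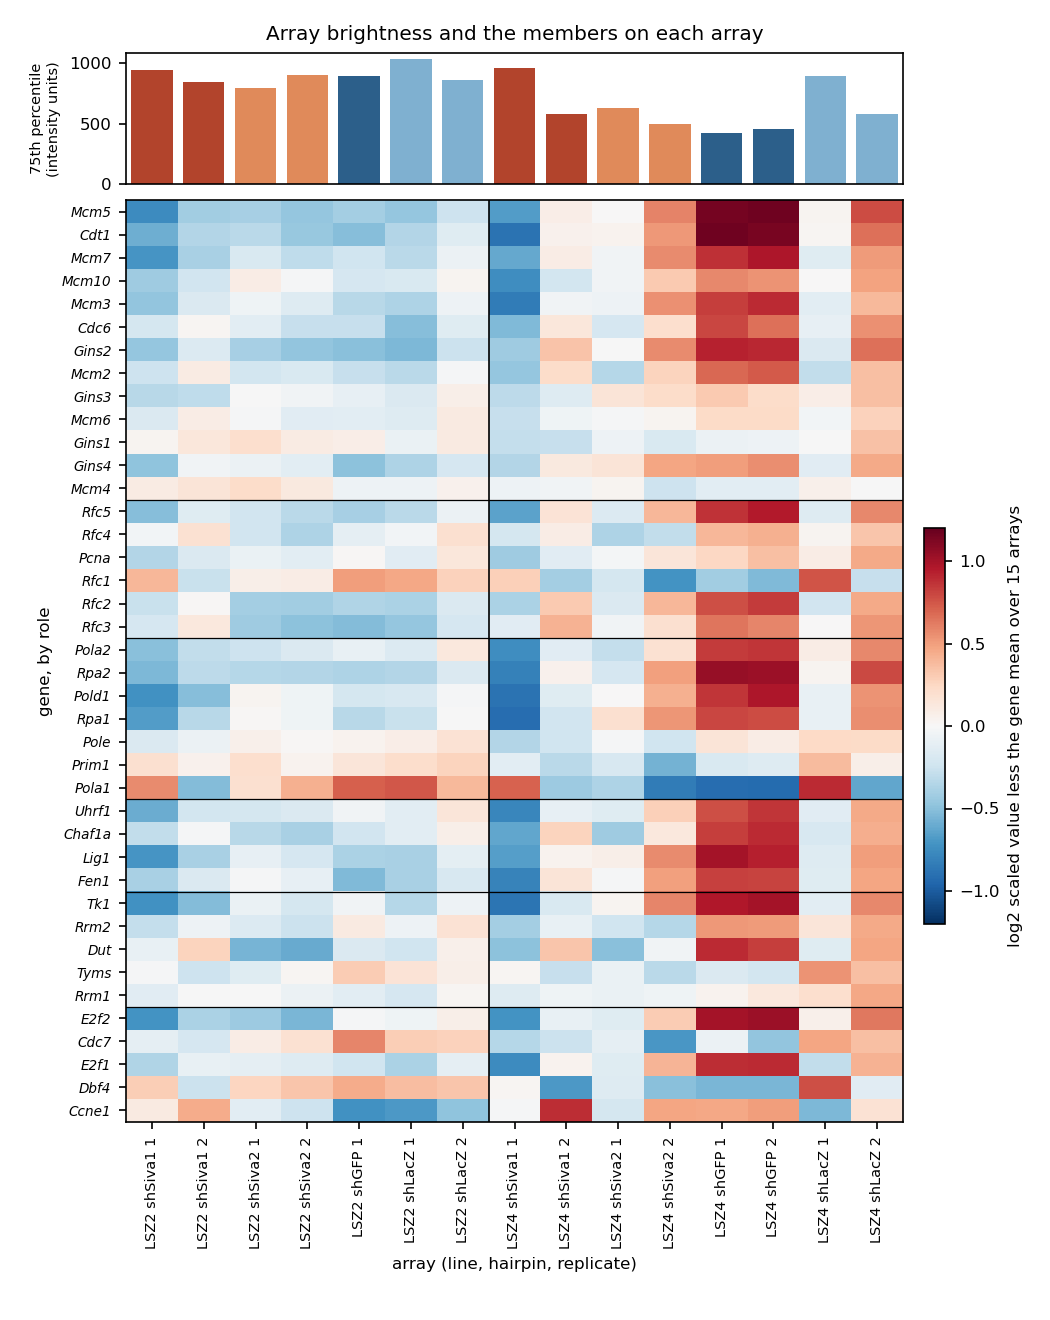
Log2 scaled level of the 40 members on each of 15 arrays, less the mean of the gene over all arrays (colour, red above and blue below), with the brightness of each array as bars from 0 above. The dim LSZ4 shGFP arrays are red and the bright LSZ4 shSiva1 array 1 is blue for most members, and Pola1 and Rfc1 run the other way.

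Single arrays stood apart for many members. LSZ4 shSiva1 replicate 1, the brightest of LSZ4 at 956 intensity units, was the lowest of the 15 arrays for 21 of 40 members. The LSZ4 shGFP arrays, at 425 and 455 intensity units, were the highest for 11 and 15 members. Without those shGFP arrays the pooled fit called 1 member and 5.91% of all genes, and with brightness as a covariate 14 members and 20.3%.

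Within LSZ2 no member passed. The median change of the members was −0.09, against −0.04 over all genes, and 27 of 40 were negative, against 54.8% of all genes. The fit called 0.939% of all genes, and 1 of 40 members had an unadjusted p under 0.05, as did 10.2% of all genes. That member was Ccne1, at 0.68 (SE 0.30, adjusted p = 0.442), and E2f2 was at −0.52 (SE 0.26, adjusted p = 0.524). Every shSiva array was below every control array of LSZ2 for 6 members, Cdc7, Dbf4, E2f2, Pola2, Tyms and Uhrf1, against 11.7% of all genes, and above for 2, Ccne1 and Mcm4, against 8.94% of all genes. With brightness as a covariate 3 members were called, all lower, and 8.27% of all genes. They were E2f2 at −0.61 (SE 0.08, adjusted p = 0.00179), Uhrf1 at −0.38 (SE 0.10, adjusted p = 0.0338) and Pola2 at −0.34 (SE 0.09, adjusted p = 0.0446).

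Within LSZ4 the members were lower by more, and 2 passed. The median was −0.52, against −0.18 over all genes, and 38 of 40 were negative, against 64.9% of all genes. An unadjusted p under 0.05 was found for 19 members and for 21.7% of all genes. Rrm2 was at −0.68 (SE 0.15, adjusted p = 0.0197) and Pola2 at −0.84 (SE 0.22, adjusted p = 0.0423). The fit called 4.52% of all genes, 2.13% lower and 2.39% higher. E2f2, also at −0.84 (SE 0.24), had an adjusted p of 0.0593. In the other classes the smallest p belonged to Mcm5 at −0.78 (adjusted p = 0.12), Rfc4, a loader subunit, at −0.50 (adjusted p = 0.119) and Uhrf1 at −0.67 (adjusted p = 0.141).

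Mcm5 in LSZ4 had scaled levels of 34.7 and 58.4 with shSiva1 and 55.3 and 83.4 with shSiva2, against 123 and 124 with shGFP and 56.6 and 95.0 with shLacZ. In LSZ2 its range was 32.8 to 41.8 with shSiva, against 40.02 to 46.5 with control. Rfc4 in LSZ4 had 20.4 and 25.05 with shSiva1 and 18.2 and 19.2 with shSiva2, against 31.1 and 31.7 with shGFP and 24.1 and 29.6 with shLacZ. For both genes the arms overlapped in each line, and in LSZ4 it was 1 shLacZ array that lay within the shSiva range. In LSZ2 Rfc4 ran from 18.3 to 26.7 with shSiva, against 21.9 to 26.9 with control. Uhrf1 ran from 25.5 to 53.4 with shSiva in LSZ4, against 39.6 to 79.0 with control, and from 28.9 to 38.7 with shSiva in LSZ2, against 40.1 to 48.3 with control. Its arms overlapped in LSZ4 and not in LSZ2. Every shSiva array of LSZ4 was below every control array of that line for 3 members, Pole, Rrm1 and Rrm2, against 3.78% of all genes, and above for 0. For 0 members did this hold in both lines.

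With brightness as a covariate, 21 members were called in LSZ4, all lower, and 17.1% of all genes. Pola2 was at −0.68 (SE 0.09, adjusted p = 0.000497), E2f2 at −0.65 (SE 0.08, adjusted p = 0.000308) and Rrm2 at −0.62 (SE 0.09, adjusted p = 0.000915). The calls covered 6 of 13 licensing and helicase genes, 3 of 6 clamp genes, 5 of 7 polymerase genes, 2 of 4 Okazaki fragment and chromatin genes, 3 of 5 nucleotide genes and 2 of 5 regulators. Leaving out 1 array at a time gave 0 to 24 called members in the fit without the covariate, the highest without LSZ4 shLacZ replicate 1, while the count over all genes ran from 505 to 5935. Without the LSZ4 shGFP arrays it was 0 members and 341 of all genes, and with the covariate 16 members and 2107 of all genes.

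The difference between the lines was tested directly. For 37 of 40 members the shSiva change in LSZ2 less that in LSZ4 was positive, with a median of 0.46, against 0.14 over all genes. The difference was negative for 3 of 40 members and for 37.1% of all genes. It was called for 0 members and for 0% of all genes by limma, while at an unadjusted p under 0.05 there were 1 member and 521 genes, and with brightness as a covariate 17 genes but no member were called. The 1 member was Cdc6, the loader of the helicase, at 0.74 (SE 0.32, adjusted p = 0.899). Its scaled level ran from 1.95 to 2.40 with shSiva in LSZ2, against 1.65 to 2.14 with control, and from 1.64 to 2.72 with shSiva in LSZ4, against 2.20 to 4.10 with control. The arms of Cdc6 overlapped in both lines. A second Cdc6 probe gave changes of 0.17 in LSZ2 (SE 0.19) and −0.11 in LSZ4 (SE 0.18). The probe used gave 0.16 in LSZ2 and −0.57 in LSZ4, so the size of the difference depended on the probe. No member passed the test of a difference between the lines.

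**Figure D5:**
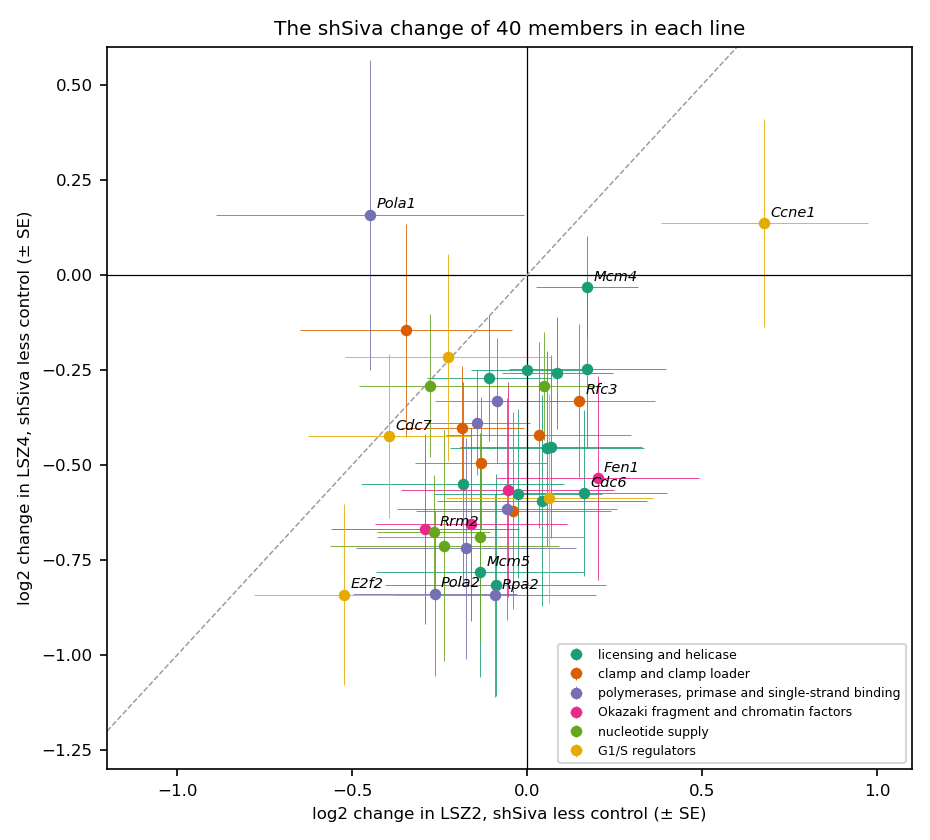
Log2 change, shSiva less control, of the 40 members in LSZ2 (horizontal axis) and in LSZ4 (vertical axis), with the SE of the fit as bars, coloured by role and with a dashed line of equal change. Most points lie under the line of equal change, with medians of −0.09 in LSZ2 and −0.52 in LSZ4, and Ccne1 stands at 0.68 in LSZ2.

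The Siva hairpins were compared with the same 7 control arrays, so their results share those arrays. With shSiva1, which left 13.1% of the control level of Siva1, 11 of 40 members were lower and 0 higher. That fit called 25.7% of all genes, 15.4% lower and 10.3% higher. The median was −0.38, against −0.19 over all genes. E2f2 had the smallest adjusted p, at −0.83 (SE 0.20, adjusted p = 0.00766). Pold1, the catalytic subunit of polymerase delta, was at −0.80 (SE 0.21, adjusted p = 0.0132), and Tk1 at −0.82 (SE 0.23, adjusted p = 0.0159). The other 8 were Pola2, Rpa1, Pcna, Rrm2, Gins3, Uhrf1, Mcm10 and Pole, between −0.72 for Pola2 and −0.36 for Pole. Without LSZ4 shSiva1 replicate 1 the count was 2 of 40, and 16.9% of all genes.

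With shSiva2, which left 23.4% of the control level of Siva1, 12.3% of all genes were called, 6.3% lower and 5.98% higher. Of 40 members 2 were called lower. They were Rrm2 at −0.51 (SE 0.14, adjusted p = 0.0257) and Rfc4 at −0.49 (SE 0.14, adjusted p = 0.03). The median was −0.20, against −0.05 over all genes. E2f2 was at −0.56 (SE 0.20, adjusted p = 0.0907). With brightness as a covariate shSiva1 had 25 of 40 members called, 24 lower and Ccne1 higher, where 50% of all genes were called. In that fit shSiva2 had 20 of 40 called, all lower, where 38.1% of all genes were called.

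The hairpins were also set against each other. Rpa1, the large subunit of the complex that coats single strands, was higher with shSiva2 than with shSiva1 by 0.71 (SE 0.24, adjusted p = 0.0498), the 1 member of 40 called, where 19.5% of all genes were. Its scaled level was 65.6 and 62.5 with shSiva2, against 40.8 and 51.4 with shSiva1, in LSZ2. In LSZ4 it was 74.0 and 93.7 with shSiva2, against 34.5 and 55.4 with shSiva1. The hairpins did not overlap within either line, and the control arrays ran from 51.5 to 64.6 in LSZ2 and from 60.9 to 113 in LSZ4. The call was lost in 11 of 15 fits that left out 1 array. In the fit with brightness 14 of 40 members were called, where 41.9% of all genes were. Higher with shSiva2 were Rpa1 at 0.47, Pold1 at 0.43, Dbf4 at 0.40, Tk1 at 0.39, Mcm10 at 0.32, Gins3 at 0.30 and Lig1 at 0.24. Lower with shSiva2 were Dut, which keeps uracil out of DNA, at −0.71, Ccne1 at −0.66, Rfc4 at −0.43, Rfc3 at −0.42, Chaf1a at −0.36, Rfc2 at −0.33 and Mcm2 at −0.27. Of the 6 clamp and clamp loader genes 3 were thus called in that fit, Rfc2, Rfc3 and Rfc4, all lower. In the fit without brightness 0 of the 6 were called, and 2 had a positive change, the highest at 0.25.

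Set against shGFP alone, the control that had also been selected in puromycin, 7 of 40 members were lower with the Siva hairpins. That fit called 20.7% of all genes, 13.6% lower and 7.14% higher. E2f2 was at −0.93 (SE 0.20, adjusted p = 0.00731), and the others were Rrm2, Pola2, Tk1, Uhrf1, Pold1 and Mcm5, between −0.81 for Tk1 and −0.59 for Rrm2. The median was −0.45, against −0.21 over all genes. Without the LSZ4 shGFP arrays 0 members and 1.36% of all genes were called. The brightness covariate brought the count to 11 of 40, 10 lower and Ccne1 higher at 0.59 (SE 0.10, adjusted p = 0.00224), where 29.8% of all genes were called.

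Against shLacZ alone, which had not been selected, 0 of 40 members were called, where 11.2% of all genes were, and 9 members and 23.8% of all genes had an unadjusted p under 0.05. The smallest adjusted p belonged to Rrm2, at −0.41 (SE 0.13, adjusted p = 0.0612). The median was −0.25, against −0.05 over all genes. Once brightness was in the fit 28 of 40 were called, 27 lower and Ccne1 higher at 0.38 (SE 0.09, adjusted p = 0.0052), where 39.0% of all genes were called. E2f2 was at −0.66 in that fit (SE 0.06, adjusted p = 2.43e-05).

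The control hairpins compared with each other gave 0 called members, and 0.00437% of all genes, which is 1 gene. The median change of shGFP over shLacZ was 0.34 for the members and 0.23 for all genes. In the fit with brightness, or without scaling, the median of the members was −0.13, so its direction depends on the scaling. Tk1 had the smallest p, at 0.55 (SE 0.24, adjusted p = 0.346). Its scaled level was 68.1 with shGFP, against 55.2 and 66.9 with shLacZ, in LSZ2, and 136 and 139 with shGFP, against 64.2 and 104 with shLacZ, in LSZ4. The shGFP arrays were above the shLacZ arrays in both lines. With shSiva1 Tk1 was 42.2 and 48.8 in LSZ2 and 38.1 and 61.8 in LSZ4, and with shSiva2 it was 66.3 and 60.4 in LSZ2 and 71.3 and 105 in LSZ4.

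Between the lines with control hairpins, 5.94% of all genes were called, 3.48% lower in LSZ2 and 2.46% higher. Of 40 members 3 were lower in LSZ2 than in LSZ4. They were Mcm5 at −1.16 (SE 0.30, adjusted p = 0.0369), Gins2, a subunit of the GINS complex, at −1.01 (SE 0.28, adjusted p = 0.0463), and Rfc3 at −0.84 (SE 0.22, adjusted p = 0.0384). The median was −0.63, against −0.32 over all genes, but without scaling it was 0.08. Mcm5 was 41.5 with shGFP and 40.02 and 46.5 with shLacZ in LSZ2, against 123 and 124 with shGFP and 56.6 and 95.0 with shLacZ in LSZ4. With brightness as a covariate 0 members and 2.37% of all genes were called. Leaving out 1 array gave 0 to 29 members and 364 to 12862 of all genes, both highest without LSZ4 shLacZ replicate 1.

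Between the lines with Siva hairpins, 0 of 40 members were called, where 1.66% of all genes were, and 2 members and 11% of all genes had an unadjusted p under 0.05. Prim1, the catalytic subunit of primase, had the smallest, at 0.42 (SE 0.16, adjusted p = 0.363). With shSiva1 its scaled level was 23.6 and 21.4 in LSZ2, against 19.0 and 16.6 in LSZ4. With shSiva2 it was 23.9 and 21.3 in LSZ2, against 18.1 and 13.96 in LSZ4. On the control arrays it ran from 22.9 to 24.9 in LSZ2 and from 18.3 to 26.9 in LSZ4. The LSZ2 shSiva arrays were thus above the LSZ4 shSiva arrays for this gene without passing the test. In the fit with brightness 2.74% of all genes were called and 1 member, E2f1, which was higher in LSZ2, at 0.42 (SE 0.08, adjusted p = 0.017). Its scaled level ran from 6.64 to 8.02 in LSZ2 and from 5.05 to 11.3 in LSZ4 with Siva hairpins, and from 6.55 to 7.94 in LSZ2 and from 6.98 to 15.9 in LSZ4 with control hairpins.

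Among 99 tested neighbours of the members in the pathway, 6 were called in the pooled comparison (6.06%), against 9.99% of all genes. Of 15 further genes of origin recognition and licensing 1 was lower, Recql4, a helicase of origin firing, at −0.85 (SE 0.18, adjusted p = 0.00755), and their median was −0.21. Of 12 other polymerase and RPA subunits 1 was higher, Poln, a repair polymerase, at 1.18 (SE 0.27, adjusted p = 0.0107), with a median of −0.20. Of 20 fork, checkpoint and chromatin genes 2 were lower, with a median of −0.28. They were Wdhd1, which links the helicase to polymerase alpha, at −0.44 (SE 0.10, adjusted p = 0.0145), and Chek1, the kinase of the S phase checkpoint, at −0.52 (SE 0.15, adjusted p = 0.0387).
Of 15 genes of the Rb and E2F family 2 were lower, both E2F repressors, with a median of −0.17. E2f8 was at −0.54 (SE 0.13, adjusted p = 0.0159) and E2f6 at −0.77 (SE 0.20, adjusted p = 0.0212). Of 17 G1 cyclins, kinases and inhibitors 15 were tested and none passed in the pooled comparison, with a median of −0.20. The 2 smallest p belonged to Ccna2, the S phase cyclin, at −0.48 (adjusted p = 0.0689), and Cdc25a, an activator of CDK2, at −0.47 (adjusted p = 0.0931). The highest change was that of Ccnd2, the G1 cyclin D2, at 1.66 (SE 0.61, adjusted p = 0.0981), and it and the G1 genes named after it were chosen once their values had been seen. With shSiva2, where 12.3% of all genes were called, Ccnd2 was the 1 of the 15 called, higher than control by 3.23 (SE 0.21, adjusted p = 3.8e-07). With shSiva1 4 of the 15 were called, where 25.7% of all genes were, so the count is near that share. Cdkn1c, an inhibitor of cyclin-dependent kinases, was higher by 2.37 (SE 0.21, adjusted p = 9.73e-07), and Cdkn1b, another, was lower at −0.79, as were Ccnd1, the cyclin D1, at −0.90, and Ccna2 at −0.63. Between the hairpins 3 of the 15 were called higher with shSiva2 than with shSiva1 and 2 lower, where 19.5% of all genes were called. Among them Ccnd2 was higher by 3.13 (SE 0.24, adjusted p = 3.48e-07), and Cdkn1c was lower, at −2.67 (SE 0.23, adjusted p = 1.07e-06). Of 15 other nucleotide genes none passed, and the 2 smallest p belonged to Impdh2 at −0.51 (adjusted p = 0.166) and Cmpk1 at −0.27 (adjusted p = 0.189). Of 8 proliferation markers 7 were tested and none passed, with a median of −0.24. Ccnb1, the mitotic cyclin, was at −0.49 (adjusted p = 0.0689), and Plk1, a mitotic kinase, at −0.45 (adjusted p = 0.19).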

How the data were processed

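The authors deposited scanner files of spot intensity values, extracted with Feature Extraction 10.7.3.1 on the mm9 build, per the file headers, and log2 values in a series table. Of these deposited log2 values, 99.84% lay within 0.05 of the log2 processed signal less the array's 75th percentile, with the median of each probe set to 0. The direction is thus that of the signal, and how the authors tested is not given in the sources used here. RNA (200 ng) was labelled with Cy3, per the labels' protocols.

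Control and outlier spots were dropped, the rest averaged per probe, and the log2 75th percentile of each array subtracted from its log2 processed signals. A probe had to be well above background on 4 or more arrays with no more than 3 missing (32188 probes), and a gene was its probe with the highest mean. Symbols were updated by accession for 26582 probes. Each model (limma 3.58.1, R 4.3.3, with version 1.17.8 of data.table) took in all 15 arrays, and p-values were adjusted by Benjamini-Hochberg over 22908 genes at a threshold of 0.05. A fit pools the spread of its groups, and the single LSZ2 shGFP array is taken to vary as other groups do. Brightness entered as log2 of the percentile. That fit gives the same changes with or without scaling, by construction. The number of arrays limits the precision.

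In simulated data for the pooled comparison, with 22908 genes, 48 of 50 genes changed by 2 on the log2 scale were called. So were 27 of 50 changed by 1 and 4 of 50 changed by 0.5. The simulated noise was independent between genes and few genes were changed, while 65.7% of all measured genes had a called slope on brightness. The counts thus hold for the simulated setting and do not give the power in these data. Nothing in the labels states that replicates were separate cultures, and p-values then cover the spread of these samples alone, which may be technical. Whether shGFP 1 and 2 are 1 hairpin or several is not settled by the labels, and they were treated as replicates. Of 21 correlations of same-numbered arrays 14 were over 0.1, with a median of 0.227 and a range of −0.213 to 0.726. The main fits did not take the numbers to pair the arrays, and a pairing was not tested further. A block on the replicate number was run as an alternative.

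The members and the gene lists were chosen with earlier results of these data known. Members named with array values, or with their range in each line and arm, were those past the test in the pooled comparison or in a line, the 2 highest and 2 lowest pooled changes, the smallest p in each other comparison, and the smallest p of each role class in LSZ4. Other members were named after their values were seen. Alternatives covered quantile normalization, normexp correction, median scaling, the deposited table, probe filters, the mean of probes, brightness, blocks and leaving out arrays. The fit without scaling and the fit with brightness but without the LSZ4 shGFP arrays were chosen after seeing the data.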

Additional observations from a re-analysis of the deposited data

Results flagged for a closer look

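In 120 groups of 4 arrays (a member in a line and arm), 7 had an array set apart from the other 3 by more than Dixon's 95% critical value allows, where chance flags about 1 in 20. All values are scaled levels. In the LSZ4 control group, shLacZ replicate 1, the brightest control array of that line, gave 4 of them. It was low for Mcm6 (125, against 150 to 155 on the others), Mcm10 (17.6, against 24.5 to 26.0) and Gins4 (11.4, against 17.1 to 18.5), and high for Pola1 (7.48, against 2.11 to 2.60). LSZ4 shLacZ replicate 2 was high for Gins1 (11, against 8.20 to 8.62). In the LSZ2 shSiva group, shSiva1 replicate 1 was low for Uhrf1 (28.9, against 37.5 to 38.7) and shSiva1 replicate 2 was low for Dbf4 (1.32, against 1.88 to 1.98). Rpa1 differed between the Siva hairpins, higher with shSiva2 than with shSiva1 by 0.707 on the log2 scale by the test of that difference.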

How the results depend on the processing

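No called difference of a member between groups reversed its sign under any alternative run. Of the 34 called slopes on brightness, 15 changed sign under no scaling or quantile normalization, 4 of them with a call in the other direction. Without scaling every slope is 1 higher by construction, and the cause of the other moves was not tested. The pooled count of 3 members was 5 with quantile normalization, 22 with brightness as a covariate, 12 without scaling, 0 with the random block, 0 with 8 group means, 1 without the LSZ4 shGFP arrays and 14 without them but with brightness. Normexp correction, median scaling, the deposited table and no filter each gave 2. In LSZ4 (2 members) brightness gave 21, no scaling 12, leaving out the shGFP arrays 0, and that with brightness 16. In LSZ2 (0) brightness gave 3 and no scaling 1. For shSiva1 (11) brightness gave 25. For shSiva2 (2) quantile normalization gave 6, normexp 0, brightness 20 and no scaling 14. For shSiva2 against shSiva1 (1) these gave 8, 3, 14 and 10. Against shGFP (7) brightness gave 11 and no scaling 12. Against shLacZ (0) quantile normalization gave 7, brightness 28 and no scaling 19. Between the lines with control hairpins (3) normexp gave 0, brightness 0 and no scaling 1, and with Siva hairpins (0) brightness gave 1. For the slope on brightness (34) no scaling gave 15. The replicate block gave 4 members for shSiva2, 3 for shSiva2 against shSiva1, 24 against shGFP and 6 against shLacZ, and it moved no other count by over 1.5 times. These are counts of members alone, and the share of all genes called moved as well. With brightness it went from 12.3% to 38.1% for shSiva2 and from 11.2% to 39.0% against shLacZ. It fell between the lines with control hairpins. Without scaling the share went from 9.99% to 16.3% in the pooled comparison. The share under the replicate block is not given here, so its counts do not set the members apart from all genes. The replicate numbers were not taken to pair the arrays in the main fits. Of 21 correlations of same-numbered arrays 14 were over 0.1, with a median of 0.227 and a range of −0.213 to 0.726. Whether same-numbered arrays belong together was not tested beyond these correlations.

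Leaving out 1 array gave 2 to 4 members in the pooled comparison, 0 to 24 in LSZ4, 2 to 16 for shSiva1, 0 to 4 for shSiva2, 0 to 4 for shSiva2 against shSiva1, 0 to 24 against shGFP, 0 to 3 against shLacZ, 0 to 29 between the lines with control hairpins and 31 to 34 for brightness. Over all genes it gave 1559 to 3798 in the pooled comparison, 505 to 5935 in LSZ4 and 364 to 12862 between the lines with control hairpins. For the hairpins it gave 3820 to 8924 genes for shSiva1, 1786 to 4014 for shSiva2 and 3351 to 5624 for shSiva2 against shSiva1. It gave 1468 to 8550 genes against shGFP, 1831 to 2944 against shLacZ and 12466 to 15259 for brightness. The highest was without the LSZ2 shGFP array against either control, and without LSZ4 shLacZ replicate 1 in the other comparisons of this list but brightness. LSZ2, the difference between lines, shGFP against shLacZ and the lines with Siva hairpins stayed at 0 members.

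Over all genes the pooled fit called 2288 genes, 43.3% of them higher, against 838 (56.0%) with normexp, 6669 (32.7%) with brightness, 3165 (49.9%) with quantile normalization, 3735 (35.1%) without scaling, 962 (62.5%) with the random block, 287 (69.3%) with 8 group means and 1347 (57.2%) without the LSZ4 shGFP arrays. The scalings moved the median of all genes between −0.18 and 0.02 in LSZ4, and relative to it the members' median lay between −0.62 and −0.18. Against shGFP the median of all genes lay between −0.21 and 0.13, and the members' median relative to it between −0.37 and −0.11. The slide as a block was not run, since each slide holds 1 arm.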
